A study of Mus musculus with 8 samples.

Results

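Olfactory receptor genes with at least 1 sequencing count were described in RNA from splenic Ly6Chigh monocytes of the mouse. Of 1120 receptor entries in the count table (symbols that begin with Olfr and a digit, pseudogenes left out), 28 had a summed count of 1 or more over 8 libraries, which is 2.5% of the family. The other 1092 were at 0 counts in every library. Because the 28 genes were selected on this summed count, their presence and rank are a description and carry no test.

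The libraries came from 4 wild-type (WT) and 4 Olfr2 knockout (KO) samples of spleen, all taken at day 7 after an aneurysm was induced. Ly6Chigh monocytes, the classical inflammatory monocytes, had been sorted by flow cytometry, and the series asks about Olfr2 in monocyte recruitment and abdominal aortic aneurysm. Both genotypes share the aneurysm induction, and no library from animals without it was analysed. The inducing agent, the form of the knockout allele, and the sex and age of the mice are not given in the labels, which also do not state whether the libraries are separate animals. The p-values below therefore measure the spread between libraries, which may be technical.

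Olfactory receptors are G protein-coupled receptors, proteins that cross the membrane several times, and they detect odorants. Each olfactory sensory neuron typically expresses a single allele of a single receptor gene from the large clusters of this family. The receptor couples to the G protein Golf, which stimulates adenylyl cyclase, and the cAMP formed opens a cyclic nucleotide-gated channel. Some receptors have also been studied outside the nose, including Olfr2 in macrophages of the vessel wall.

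The coding sequence of 9 of the 10 receptors with the most counts is shown over the conserved stretch at the end of the third membrane helix, a hallmark of the family, so that their likeness can be seen. Capitals mark the codons at the position of the residue triplet known as DRY, which lies where the receptor meets its G protein. The bases are read 5′ to 3′ from GENCODE M21 transcripts on GRCm38.
Olfr433: atggctctgGACCGCTACcttgctatctgt
Olfr56: atggcttatGATCGCTATgtggccattagc
Olfr456: atggcctatGACCGCTCTgtggctgtctgt
Olfr99: atggctattGACAGGTATgccgctatctgt
Olfr482: atggcttatGATCGCTTTgtagcaatctgc
Olfr920: atggcctatGATCGTTATgtggctatctgc
Olfr1417: atggcctatGACCGGTTTgtggccatctgt
Olfr111: atggcatatGATCGATATattgctatctgt
Olfr1444: atggcttacGACCGCCATgcagcagtgtgt

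All 28 genes are annotated as protein coding, and each encodes between 305 and 328 residues. The residue pattern that defines this stretch was found in all 28 and in 1030 of 1111 receptors with a coding sequence (92.7%). The pattern was chosen after the sequences of the 28 had been seen, so its full coverage of them is by construction. Receptors in the same cluster can be identical here: Olfr432 has the same bases as Olfr433, and Olfr110 the same as Olfr111.

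The libraries held between 16111725 and 21728794 counts, of which the 28 receptors took 415 of 150231279, or 2.76 CPM (the count scaled to the library total). A count of 0 in a library allows up to 3 counts, a level of 0.138 to 0.186 CPM depending on depth, and this limit covers counting error only. Each of the 8 genes fixed as classical monocyte markers was present, with summed levels of 122636 to 131675 CPM in WT and 139358 to 164428 CPM in KO. Summed neutrophil markers lay between 255 and 598 CPM in WT and between 569.9 and 3075 CPM in KO, with the 2 highest values in KO 1 (2091 CPM) and KO 2 (3075 CPM). Most of the WT sum came from Mmp8, at 223.6 to 555.1 CPM in WT and 510 to 756.9 CPM in KO. Ngp, Camp, Ltf, Retnlg and Ly6g were each at 1.634 CPM or less in WT, and S100a8 was at 23.69 to 48.6 CPM there. Summed B cell markers overlapped between genotypes (16.3 to 38.1 CPM in WT, 15.96 to 34.1 CPM in KO, with Pax5 at 0). T and NK cell markers summed to 0.599 to 1.21 CPM in WT and 1.70 to 3.52 CPM in KO, with Ncr1 at 0, and erythroid markers to 4.03 to 9.79 and 5.66 to 24.6 CPM. Whether these other cell types contribute to the receptor counts was not tested.

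Markers of olfactory sensory neurons were at or near 0. Gng13, Cnga2, Stoml3 and Gfy had 0 counts in all 8 libraries, and Omp, the olfactory marker protein, had 1 count, in WT 3. Olfr2 itself (ENSMUSG00000070417), the targeted gene, had 0 counts in each of the 8 libraries. It is therefore not among the 28, this depth did not detect it in WT or KO, and its level cannot check the genotype labels.

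**Figure D1:**
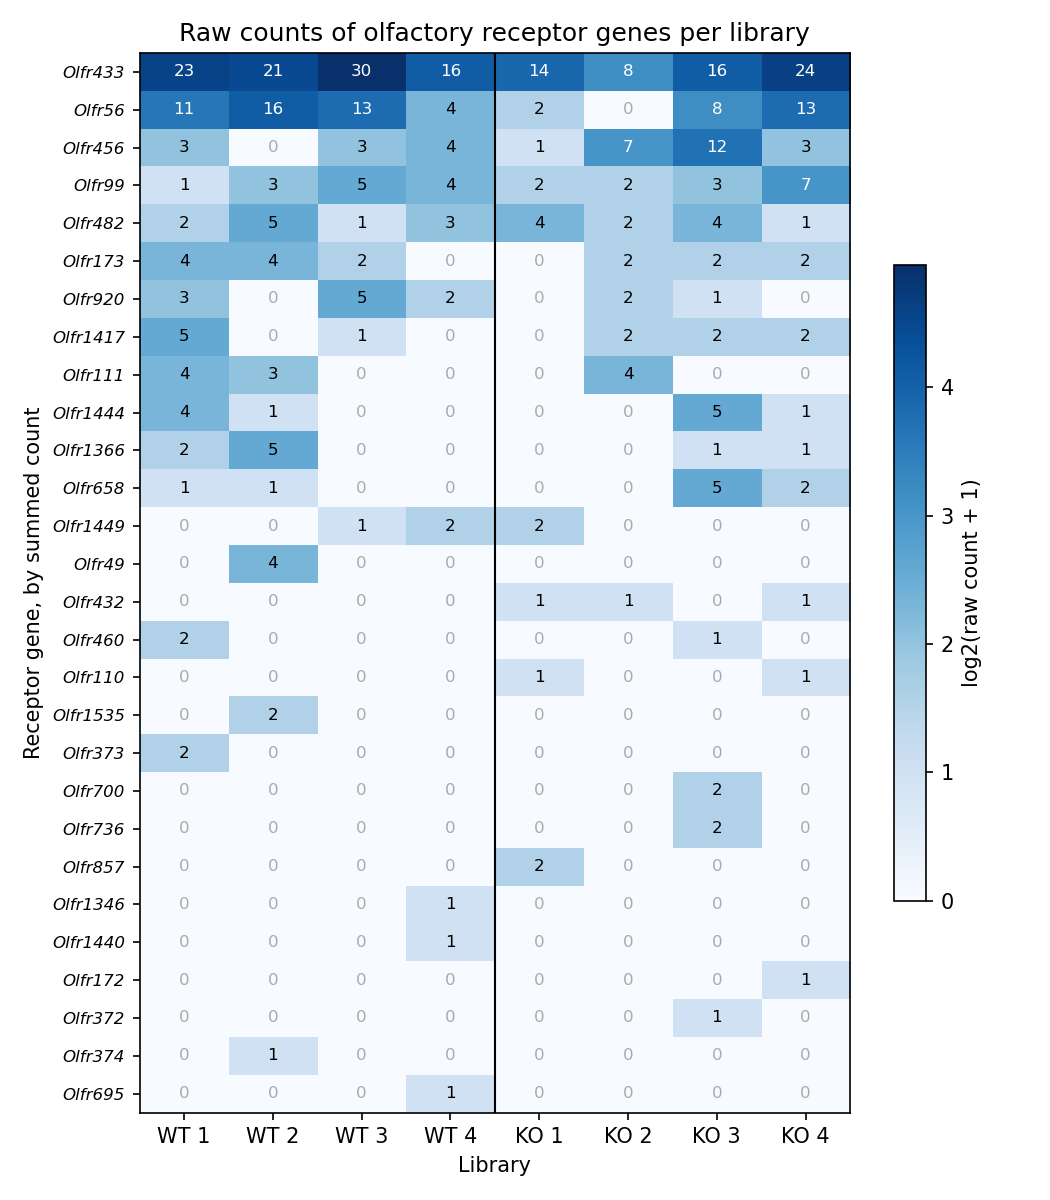
Raw counts of the 28 receptor genes (vertical axis, ordered by summed count) in the 4 WT and 4 KO libraries (horizontal axis), with colour on a log2(raw count + 1) scale and the count printed in each cell. Only Olfr433, Olfr99 and Olfr482 have a count in every library, and 12 genes have counts in a single library.

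Counts were concentrated in a few receptors, as the grid of counts by library shows. Olfr433 alone held 36.6% of the 415 counts, and Olfr433 with Olfr56 held 52.8%. A total of 10 or more counts was reached by 10 receptors, while 14 had 3 or fewer: 6 receptors had 1 count in total and 6 had 2. Counts were present in all 8 libraries for 3 receptors, in 7 libraries for 2 and in a single library for 12.

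Olfr433 (ENSMUSG00000045381, chromosome 1, 174040705 to 174044411, plus strand) had 23, 21, 30 and 16 counts in WT 1 to WT 4 and 14, 8, 16 and 24 counts in KO 1 to KO 4. The lowest library was KO 2 and the highest WT 3, and the genotypes overlapped. In CPM the means were 1.23 ± 0.255 in WT and 0.782 ± 0.266 in KO (SD, n = 4 each). Olfr433 made up between 24.6% and 49.2% of all receptor counts of a library.

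Olfr56 (ENSMUSG00000040328, chromosome 11, 48978889 to 49135387, plus strand) had 11, 16, 13 and 4 counts in WT and 2, 0, 8 and 13 counts in KO. KO 1 and KO 2 were the lowest libraries, while KO 4 matched WT 3 in its raw count. WT libraries averaged 0.593 ± 0.251 CPM and KO libraries 0.273 ± 0.269 CPM (SD, n = 4 each).

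Olfr456 (chromosome 6, 42486163 to 42487214, minus strand, a single exon) had 3, 0, 3 and 4 counts in WT and 1, 7, 12 and 3 in KO. The 2 highest libraries were KO 3 and KO 2, and the remaining KO libraries lay within the WT range. Olfr99 (chromosome 17, 37279043 to 37283460, minus strand), next to the class Ib MHC gene H2-M3, had 1, 3, 5 and 4 counts in WT and 2, 2, 3 and 7 in KO, with overlapping genotypes.

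Olfr482 (chromosome 7, 108092999 to 108097586, minus strand) had 2, 5, 1 and 3 counts in WT and 4, 2, 4 and 1 in KO. Its levels spanned a like range in both genotypes, with WT averaging 0.153 ± 0.0915 CPM and KO 0.145 ± 0.0822 CPM (SD, n = 4 each). Olfr173 had 4, 4, 2 and 0 counts in WT and 0, 2, 2 and 2 in KO.

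A further 6 receptors among the 12 with the most counts were absent from 3 or more libraries. Olfr920 had 3, 0, 5 and 2 counts in WT and 0, 2, 1 and 0 in KO, and Olfr1417 had 5, 0, 1 and 0 in WT and 0, 2, 2 and 2 in KO. Olfr111 was counted in 3 libraries only, with 4 counts in WT 1, 3 in WT 2 and 4 in KO 2. Both genotypes held counts of each of these 3 receptors.

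Olfr1444 had 4 counts in WT 1, 1 in WT 2, 5 in KO 3 and 1 in KO 4. Olfr1366 had 2, 5, 1 and 1, and Olfr658 had 1, 1, 5 and 2, in the same 4 libraries. For these 3 receptors WT 3, WT 4, KO 1 and KO 2 were all at 0, so that the libraries with counts included both genotypes.

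Compared per length, the order changed. Summed over the libraries, Olfr433 had 41.0 counts per kb of annotated exon, Olfr456 31.4, Olfr99 15.2, Olfr56 14.8 and Olfr482 8.42. Olfr456, with 1052 bases of exon, thus moved above Olfr56. The libraries were primed with oligo-dT, so that counts need not scale with the whole exon length.

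Detection was compared between genotypes. The number of receptors with at least 1 count was 14, 12, 9 and 10 in WT 1 to WT 4 and 9, 9, 15 and 13 in KO 1 to KO 4, with means of 11.25 ± 2.22 and 11.5 ± 3.00 (SD, n = 4 each). These ranges overlapped, and the means differed by less than the spread of the libraries. Expected numbers after thinning each library to 16111725 counts were 10.9 ± 2.21 in WT and 10.7 ± 2.38 in KO (SD, n = 4 each). With a minimum of 3 counts the means were 6.5 ± 1.73 in WT and 4.0 ± 2.16 in KO, again with overlapping libraries (5 to 8 and 2 to 7).

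In each genotype 21 of the 28 receptors had at least 1 count. Of the 28, 14 were counted in both genotypes, 7 in WT only and 7 in KO only. The receptors seen in a single genotype were scarce: the highest total among them was 4, for Olfr49, with all 4 counts in WT 2. The only receptor present in 3 or more libraries of a single genotype and absent from the other was Olfr432, the neighbour of Olfr433, with 1 count each in KO 1, KO 2 and KO 4.

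The summed receptor level was 3.65, 3.47, 3.21 and 2.36 CPM in WT 1 to WT 4 and 1.68, 1.70, 3.08 and 2.72 CPM in KO 1 to KO 4. WT averaged 3.17 ± 0.570 CPM and KO 2.29 ± 0.711 CPM (SD, n = 4 each), and the libraries overlapped. Raw counts summed to 232 in WT and 183 in KO, and to 98 in each genotype once Olfr433 and Olfr56 were left out. Those equal sums cover libraries that differed: the other 26 receptors had 33, 29, 18 and 18 counts in WT 1 to WT 4 and 13, 22, 41 and 22 in KO 1 to KO 4. KO was lower than WT among replicates 1 and 2 and higher among replicates 3 and 4.

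**Figure D2:**
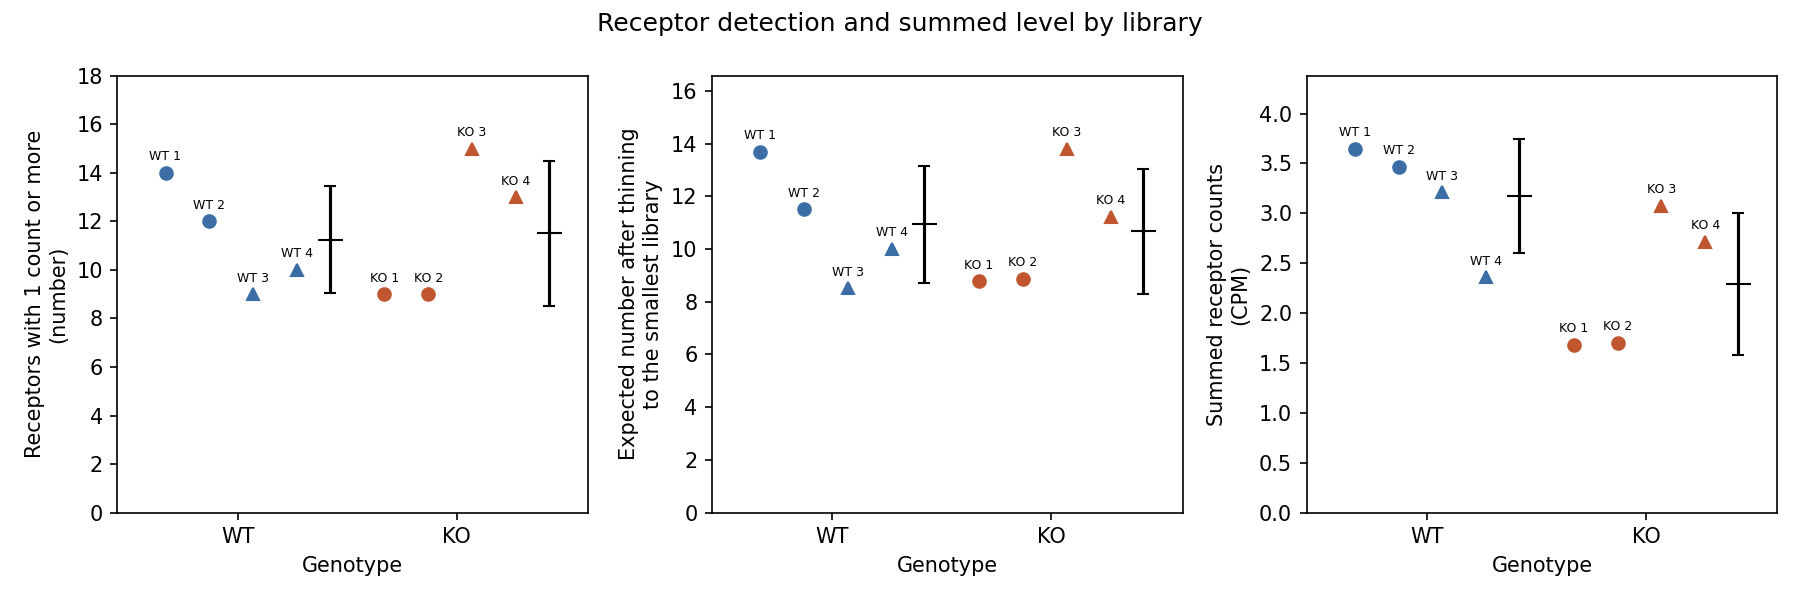
Number of receptors with 1 count or more, the number expected after thinning to the smallest library, and the summed receptor level in CPM (vertical axes) by genotype (horizontal axes). Points are libraries (circles for column numbers beginning with 16, triangles for 17) and bars are the mean and SD of 4; KO 1 and KO 2 have the lowest summed levels, 1.68 and 1.70 CPM.

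The column numbers of the count table begin with 16 for replicates 1 and 2 of both genotypes and with 17 for replicates 3 and 4, and the labels do not say what they mark. In the first series WT libraries held a mean of 13 receptors and KO libraries 9, and in the other series the order was opposite, with 9.5 in WT and 14 in KO. Summed levels were 3.56 CPM in WT and 1.69 CPM in KO in the first series, and 2.79 and 2.90 CPM in the other. Without KO 1 and KO 2 the KO mean was 14 receptors and 2.90 CPM, beside 11.25 receptors and 3.17 CPM over all 4 WT libraries. KO 1 and KO 2 are the libraries with the highest neutrophil markers: S100a9, a neutrophil calcium-binding protein, was at 463 and 729 CPM there and between 7.11 and 32.0 CPM in the other 6 libraries. The part of these markers in the receptor values was not tested.

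The test across all genes (edgeR quasi-likelihood, Benjamini-Hochberg adjusted p of 0.05) called 119 of 11222 genes different between KO and WT, or 1.06%. Only Olfr433 and Olfr56 passed its filter on low counts, and 0 of these 2 receptors were called. In this fit neither had an unadjusted p under 0.05, beside 2344 of the 11222 genes with such a p. DESeq2, which called 784 of 11222 genes (6.99%), also called 0 of the 2. The log2 difference (KO against WT) was -0.58 ± 0.35 for Olfr433 (SE, edgeR adjusted p = 0.356) and -0.98 ± 0.65 for Olfr56 (SE, edgeR adjusted p = 0.409). In these bulk samples fewer cells that express a gene and less RNA per cell cannot be told apart.

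Without the filter, 742 of 21213 genes were called (3.5%), and all 28 receptors entered. Of these, 0 were called and 0 had an edgeR unadjusted p under 0.05, beside 3246 of the 21213 genes with such a p. Most of the 28 had counts near the detection limit. Each receptor with 1 count in all had an edgeR unadjusted p of 0.295 to 0.306, whichever genotype held it. Each with 2 counts had an edgeR unadjusted p of 0.155 to 0.162. For these receptors the outcome was set by the count, so that 0 of 28 says little about the family. The fitted log2 difference was below 0 for 17 of the 28, with a median of -0.54 beside a median of -0.04 over all genes fitted. For the 12 receptors with counts in a single library, the sign only reflects which library held the counts. With Olfr433 and Olfr56 left out, raw receptor counts summed to 98 in each genotype. Fitted values of receptors with a few counts depend on the prior count.

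Both receptors were also compared within each number series. For Olfr56 the log2 difference was -3.34 ± 1.01 in the first series (SE, edgeR unadjusted p = 0.00602, adjusted p = 0.103). In the other it was 0.01 ± 0.73 (SE, edgeR adjusted p = 0.992). The test of the difference itself gave 3.36 ± 1.27 (SE, edgeR unadjusted p = 0.0216, adjusted p = 0.218), which did not pass after adjustment. Without KO 4 the edgeR unadjusted p of Olfr56 was 0.0391 (adjusted p = 0.231). Without KO 1 and KO 2 the log2 difference of Olfr56 was -0.24 (edgeR adjusted p = 0.871), and over all 14 alternatives it lay between -1.68 and -0.24 (adjusted p of 0.231 to 0.871). Olfr433 was at -0.72 ± 0.52 and -0.49 ± 0.49 in the 2 series (SE, edgeR adjusted p = 0.485 and 0.579), and between -0.80 and -0.36 over 15 alternatives (adjusted p of 0.287 to 0.713).

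Olfr56 shares sequence with a much more abundant gene. An exon of 111 bases (chromosome 11, 49087034 to 49087144) is annotated to both Olfr56 and Ifi47, an interferon-inducible GTPase on the same strand with 61653 counts. Ifi47 was at 588, 591, 413 and 423 CPM in WT and 259, 161, 419 and 404 CPM in KO, and its log2 difference was -0.63 ± 0.25 (SE, edgeR adjusted p = 0.194). KO 1 and KO 2 were the lowest libraries for Ifi47, as they were for Olfr56. How reads on the shared exon were assigned is not given in the sources used here, so that Olfr56 counts are uncertain.

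The gene nearest to Olfr433 among those outside the family that passed the filter is Ifi205, an interferon-inducible gene on the opposite strand, 8895 bases away. Ifi205 was at 60.7, 45.8, 18.4 and 58.3 CPM in WT and 21.1, 13.8, 54.3 and 62.3 CPM in KO. KO 2 was the lowest library for both genes, whereas WT 3, the highest library for Olfr433, was the next lowest for Ifi205. A link between the 2 genes was not tested. No exon of Olfr433 overlapped a gene outside the family, though a short stretch of its transcript was near-identical to one in 5 such genes, of which Sesn3 had the most counts (123 in all).

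**Figure D3:**
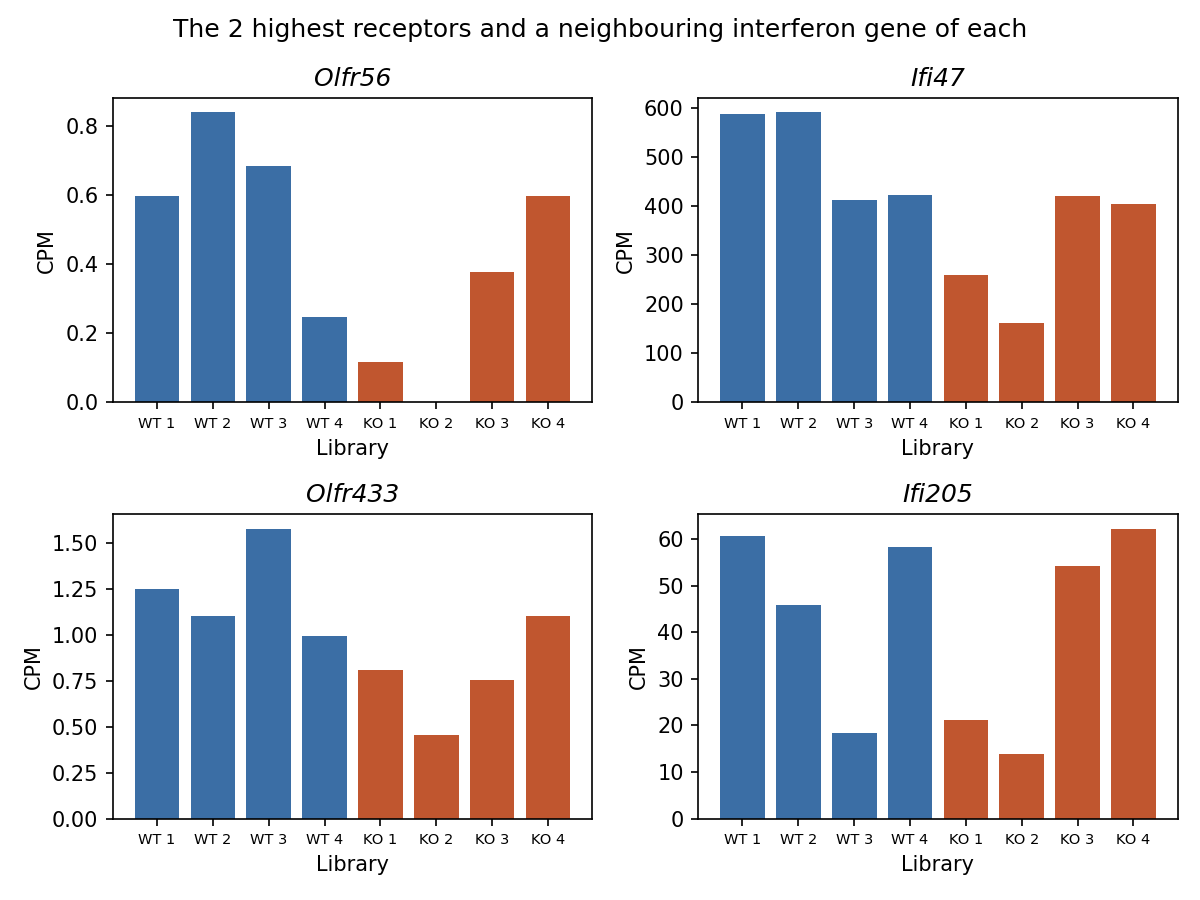
Level in CPM (vertical axes, linear from 0) of Olfr56, Olfr433 and an interferon-inducible gene beside each, Ifi47 and Ifi205, in the 4 WT (blue) and 4 KO (orange) libraries (horizontal axes). Olfr56 and Ifi47 are both lowest in KO 1 and KO 2, and Olfr433 and Ifi205 are both lowest in KO 2, while Olfr433 is highest in WT 3, where Ifi205 is at 18.4 CPM.

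Olfr482 carries a copy of another transcript. A stretch of 1385 aligned bases in its transcript (bases 1032 to 2413 of 2612) is 98.7% identical to Ramac, which encodes the activating subunit of the mRNA cap methyltransferase. The 30 bases below, from GENCODE M21 transcripts, show how close the 2 are, with the mismatch in capitals (bases 1070 to 1099 of Olfr482 and 104 to 133 of Ramac).
Olfr482: cccgaggtctccagCgcgtcccatgaagga
Ramac: cccgaggtctccagTgcgtcccatgaagga

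Ramac had between 3152 and 4741 counts per library (186 to 229 CPM), beside 1 to 5 counts of Olfr482. The annotated pseudogene Gm44870 overlaps the same Olfr482 exon over 357 bases. Reads of this stretch cannot be told apart with certainty between the 2 genes, and their part in the Olfr482 counts was not tested.

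Near-identical stretches were searched for all 28 receptors (at least 100 bases at 95% identity or more, against all GENCODE transcripts). Such a stretch was shared with another receptor gene or receptor pseudogene by 14 of them, with a gene outside the family by 9, and with no gene by 9. Olfr1417 was 98.7% identical to Olfr1418 over 934 bases, Olfr658 97.1% identical to Olfr503 over 972 bases, and Olfr111 95.5% identical to Olfr110 over 1280 bases. Olfr920 shared such stretches with 54 genes outside the family. Of these Acaca had the most counts (94 in all), with 186 bases at 96.8% identity. Olfr456 was 95.1% identical to Olfr457 over 993 bases, and Olfr173 95.2% identical to Olfr172 over 1076 bases. Olfr457, Olfr503 and Olfr1418 are not among the 28. Olfr110, Olfr172 and Acaca had far fewer counts than Ramac (31491 in all). How reads of such stretches were assigned is not given in the sources used here, so that counts of these receptors are uncertain. Olfr99 and Olfr1444 had no such stretch.

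The receptors with counts lay closer to genes active in these cells than the rest of the family. Of the 28, 12 (42.9%) lay within 20 kb of a gene outside the family that passed the filter, compared with 46 of 1092 (4.21%) of the receptors at 0. The median gap was 24.4 kb for the 28 and 259 kb for the others. Seen from the other side, 12 of 58 receptors within 20 kb of such a gene had counts (20.7%), compared with 16 of 1062 farther away (1.51%). Receptors share clusters and neighbours, so that they are not independent, and no test was made.

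**Figure D4:**
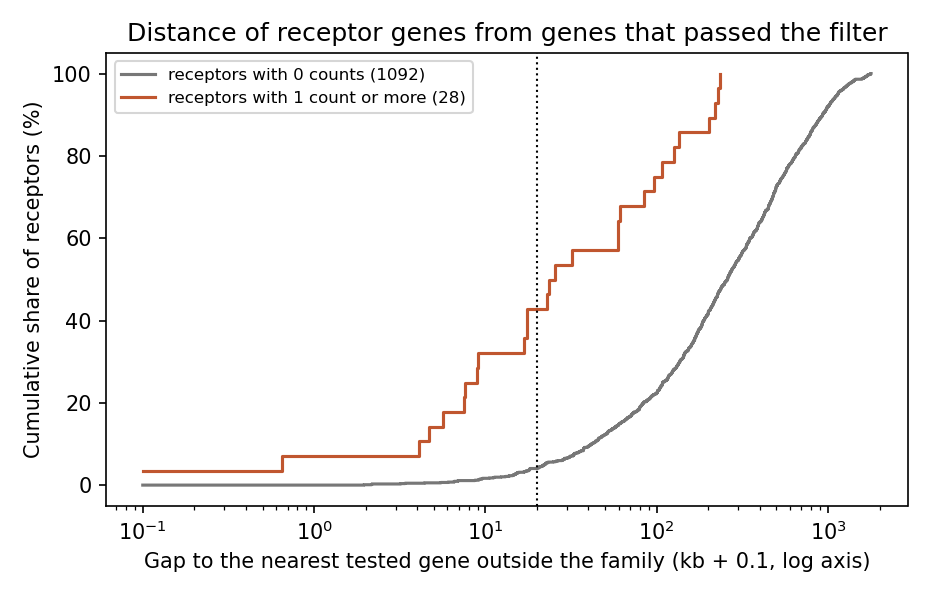
Cumulative share of receptors in percent (vertical axis) by the gap to the nearest gene outside the family that passed the filter (horizontal axis, log scale, kb + 0.1), for the 28 receptors with counts (orange) and the 1092 at 0 (grey). At the dotted line, 20 kb, the curves stand at 42.9% and 4.21%.

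Named neighbours included immune genes. Olfr460 lay 551 bases from Clec5a, a myeloid C-type lectin receptor, and Olfr1366 lay 3993 bases from the zinc finger gene Zkscan8. Olfr99 was 4559 bases from H2-M3, Olfr1417 7400 bases from the syntaxin gene Stx3, and Olfr920 8962 bases from Vwa5a. Nearness did not hold for each of the leading receptors: Olfr456 was 125950 bases from Zyx, which encodes the focal adhesion protein zyxin, and Olfr482 was 229499 bases from its nearest tested gene. Exon length was similar, with a median of 3288 bases for the 28 and 2935.5 for the rest.

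The 28 genes lay on 11 chromosomes, and 15 of them within 100 kb of another of the 28. Chromosome 8 held 3 (Olfr372, Olfr373 and Olfr374) of its 5 receptor entries, and chromosome 19 held 4 of 63. The largest group, 290 entries on chromosome 2, held 0, and chromosome 7 held 5 of 241. Olfr373 and Olfr374 are 3956 bases apart, Olfr432 and Olfr433 4794, and Olfr110 and Olfr111 7823.

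Sequence upstream of the RefSeq entry was searched on both strands over 250 bases in GRCm38.p6, where 25 of the 28 were matched. Many of these windows overlap an exon annotated in GENCODE M21, so they need not lie upstream of the gene. The homeodomain motif TAATTA, of the kind bound by Lhx2, occurred in 4 of these 25 windows (16%), in 171 of 945 receptor windows (18.1%) and in 1590 of 32851 windows of all genes (4.84%). The motif CCCNNGGG, of the kind bound by Ebf factors, occurred in 2 of 25 (8.0%), in 26 of 945 (2.75%) and in 3882 of 32851 (11.8%). The TAATTA windows of Olfr433, Olfr1444 and Olfr736 overlap an annotated exon, and that of Olfr172 does not. The CCCNNGGG window of Olfr99 overlaps an annotated exon, and that of Olfr374 does not. A match is a description of the letters in the window only.

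Among 20 receptors listed for known ligands or for work outside the nose, 19 were in the table and 4 had counts: Olfr56, Olfr111, Olfr920 and Olfr110. Olfr110 had 1 count each in KO 1 and KO 4. The other 15 were at 0 in every library, among them Olfr78 and Olfr558, studied as receptors of short-chain fatty acids, and Olfr544, studied as a receptor of azelaic acid.

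Of 24 genes of receptor trafficking and olfactory signal transduction, 13 had a count and 11 were at 0. The latter included Rtp1 and Rtp2, the chaperones that bring receptors to the surface in sensory neurons, and the channel subunits Cnga2 and Cnga4. Gnal, the Golf alpha subunit, had 18 counts in all and the adenylyl cyclase gene Adcy3 had 7. In the test across all genes 8 of the 24 entered and 0 were called in either direction, beside 1.06% of all genes called. At that share, 0 calls among 8 genes says little about this list. The fitted difference was below 0 for 6 of the 8. The highest was Rtp4, an interferon-inducible member of the chaperone family, with a WT mean of 461 ± 56.9 CPM and a KO mean of 327 ± 90.4 CPM (SD over 4 libraries). Rtp4 was not called (edgeR adjusted p = 0.189). Grk3 was just short of the threshold, with a log2 difference of -1.12 ± 0.26 (SE, edgeR adjusted p = 0.0569).

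Of 12 genes that act in receptor gene choice in sensory neurons, 9 had a count, and Lhx2, Emx2 and Ebf1, transcription factors of the sensory neuron lineage, were at 0. Of the 8 tested, 1 was called higher in KO and 0 lower, beside 1.06% of all genes called in either direction. The fitted difference was below 0 for 5 of the 8. Ehmt2 was just short of the threshold, with a log2 difference of -0.92 ± 0.21 (SE, edgeR adjusted p = 0.0535). The gene called higher was Cbx5, the heterochromatin protein HP1 alpha, which averaged 3.98 ± 1.07 CPM in WT libraries and 10.4 ± 3.64 CPM in KO libraries (SD, n = 4 each). It rose by 1.48 ± 0.27 on the log2 scale (SE; adjusted p = 0.0341 with edgeR). Over 15 alternatives its log2 change lay between 1.06 and 1.66 (edgeR or DESeq2 adjusted p of 5.356e-07 to 0.142). The call was lost without WT 1, WT 3, WT 4, KO 1, KO 2 or KO 3, each in turn, and without KO 1 and KO 2 together (log2 change 1.06, edgeR adjusted p = 0.124).

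The share of genes with a count was set side by side for the chemosensory families, and no test was made. It was 2.5% for olfactory receptors, 1.37% for their annotated pseudogenes (4 of 292, with 6 counts in all), 0.866% for type 1 vomeronasal receptors (2 of 231) and 5.6% for type 2 (7 of 125). Bitter taste receptors (35 genes) and trace amine-associated receptors (15 genes) had 0 counts, though families this small say little at such shares. In contrast, 13538 of 20382 other protein-coding genes (66.4%) had a count. The pseudogene with the most counts, Olfr650-ps1, had 3. Vmn2r97, the type 2 vomeronasal receptor with the most, had 85 of the 111 counts of its family.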

How the data were processed

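Per the labels' protocols, cDNA of sorted splenic Ly6Chigh monocytes was primed with oligo-dT, extended by template switching and amplified. The authors deposited raw counts per gene for 8 libraries, which were used as deposited. Per the submitters' processing notes, the tools were HISAT2 2.0.5 and featureCounts 1.5.0-p3, and the build GRCm38, with no role stated. Their settings, strand use and annotation release were not given in the sources used here. Reads were amplified without molecular identifiers, so floors cover counting error only.

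The labelled genotype gave the groups. Levels are CPM over the library's total count, which lay between 16111725 and 21728794. The test over all genes was the robust quasi-likelihood test of edgeR 4.0.16 in R 4.3.3, after filterByExpr and TMM scaling, with Benjamini-Hochberg adjustment at 0.05, after the script had been tested on simulated data. DESeq2 1.42.0, other scalings, filters and fits without single libraries were alternatives, and fits without KO 1 and KO 2, and all alternatives for Cbx5, were added after seeing the data. Coordinates, exons and transcripts come from GENCODE M21 (GRCm38), and similar stretches were found with blastn 2.17.0.

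The receptors and gene lists were chosen with earlier results of these data known. Receptors were named if they were among the 12 with the highest summed count or the 5 with the highest count per kb, passed the filter, had counts in every library, stood in 3 or more libraries of a single genotype, or were on the list of studied receptors. Of each other list, up to 3 genes past 0.05, or else the highest, were eligible. Some further genes were named after their values were seen. These included genes neighbouring or sharing sequence with a receptor, scarce receptors, and genes at or near 0. Ehmt2 and Grk3 were named because they were just short of the threshold. The sequence of 1 of the 10 receptors with the most counts is not reported here.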

Additional observations from a re-analysis of the deposited data

Results flagged for a closer look

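The number of receptors with a count moved in opposite directions between genotypes in the 2 number series. KO libraries had on average -4 receptors relative to WT in the series of replicates 1 and 2, where both KO libraries lay below both WT libraries, and 4.5 more in the series of replicates 3 and 4, where both lay above. After thinning the differences were -3.77 and 3.26 in the same order. The difference between the series was not tested, because it is a score over selected genes.

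Dixon's criterion (95% level) flagged single libraries for 2 receptors, of 28 groups of values examined. The number due to chance, about 1.4, holds for continuous values and does not apply to counts this low. Olfr99 was at 0.322 CPM in KO 4, above the other KO libraries, from counts of 2, 2, 3 and 7 in KO 1 to KO 4. Olfr111 was at 0.227 CPM in KO 2, from 4 counts, and at 0 in the other KO libraries. With all other libraries at 0 the criterion flags any count, so that this flag carries no information.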

How the results depend on the processing

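No receptor was called under any of the 15 alternatives to the test, and the log2 difference stayed negative for Olfr433 in all 15 and for Olfr56 in the 14 that fitted it (within the series of replicates 3 and 4 alone, Olfr56 was at 0.01). Olfr56 could not be fitted with at least 1 CPM required in 4 libraries, which removes it. The number of genes called depended on the setting: 742 without a filter, 784 with DESeq2, 251 with the number series as covariate, 7 without KO 1 and KO 2, and 0 to 515 when single libraries were left out (0 without WT 1, WT 3, KO 2 or KO 3). The cause was not tested. Same-numbered WT and KO libraries did not deviate together (correlations of -0.05 to 0.09), and the replicate block gave 244 calls, 0 of them receptors. A mean of 6.5 receptors in WT and 4.0 in KO was detected at 3 counts, and 1.75 and 1.25 at 10 counts. Leaving out the 3 receptors that share an exon with a gene outside the family gave 9 receptors and 2.41 CPM in WT. In KO it gave 9.75 receptors and 1.88 CPM. Of these 3 receptors, only Olfr56 shares an exon with a gene that had counts. Leaving out Olfr433 gave 1.94 CPM in WT and 1.51 CPM in KO. The other 26 receptors had counts too low for the filtered test. Whether depth sets this was not tested.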
